A study of Mus musculus with 4 samples.

Results

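The CLEC genes encode C-type lectin-like proteins, a family named for a carbohydrate-recognition fold and used by macrophages, dendritic cells and granulocytes to sense microbes, damaged cells and other cells. Members were taken as the protein-coding genes of the count table whose symbol is Clec followed by a digit, which gave 30 genes of the 54532 in the table. They were compared between alveolar macrophages (AMs), the resident phagocytes of the airspace, of tumor-free female wild-type mice (Control, 2 libraries) and AMs of female wild-type mice inoculated 2 weeks earlier with 4T1 cells (Tumor, 2 libraries). 4T1 is a mouse mammary carcinoma line of BALB/c origin, which the study grew in the mammary fat pad and which spreads to the lung. The methods for the RNA-seq state only that AMs were purified, while for staining the study isolated AMs from lung by a CD45+ CD11b- CD11c+ SiglecF+ phenotype. Nothing in the labels says whether the 2 libraries of a group came from separate mice or were pooled, so adjusted p-values measure only the spread between these libraries, which may be technical.

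CLEC receptors fall into groups by how they signal. Dectin-2, Mincle and their relatives carry no signalling motif of their own and pair with the FcR gamma chain or DAP12, whereas CLEC-2 and DNGR-1 carry a short activating motif, and both routes recruit the kinase SYK, which drives CARD9, BCL10 and MALT1. A further group, which includes DCIR and MICL, carries inhibitory motifs that recruit the phosphatases SHP-1 and SHP-2. The Clr proteins are ligands for NKR-P1 receptors of natural killer cells, and other members are endocytic receptors, secreted proteins or, in the case of Clec16a, an intracellular protein. Of the 30 genes, 22 lie on chromosome 6, most of them in clusters.

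Total counts ranged from 16167147 to 19205737 per library, and 3 counts or fewer, equal to 0.153 to 0.190 CPM (counts scaled to a common library size), were treated as the floor. This floor covers counting error only. All 14 AM identity genes were measured, with summed levels of 15150 and 15300 CPM in Control and 11600 and 11800 CPM in Tumor, and 12 of the 14 were called lower, 1 higher and 1 not called by edgeR's quasi-likelihood test. Both Tumor libraries also stood apart from both Control libraries in genes of other cell types. Summed neutrophil markers were 119.2 and 119.7 CPM in Control and 4480 and 4498 CPM in Tumor, and all 10 were called higher. Summed eosinophil markers were 0.694 and 0.824 CPM in Control and 2859 and 2883 CPM in Tumor, with all 5 called higher. Summed basophil and mast cell markers were 0.747 and 1.27 CPM in Control and 100.2 and 110.5 CPM in Tumor, with all 7 called higher and 3 of them (Mcpt8, Fcer1a and Ms4a2) at 0 in both Control libraries. Hepatocyte markers were 0.587 and 1.01 CPM in Control and 692.9 and 701.3 CPM in Tumor, with all 10 called higher and 8 at 0 in both Control libraries. Sums were lower in Tumor for interstitial macrophage markers (31.2 and 31.4 CPM in Control and 19.5 and 20.6 CPM in Tumor, with 3 of 5 tested genes lower and none higher) and lung epithelium markers (208.6 and 213.5 CPM against 139.1 and 143.6 CPM, with 3 of 5 lower and 1 higher). Sums rose, among others, for T cell (4.161 and 4.562 against 13.05 and 15.7 CPM) and B cell markers (4.855 and 5.069 against 10.45 and 11.26 CPM). They also rose for endothelial (5.655 and 4.245 against 25.93 and 21.71 CPM) and fibroblast markers (3.681 and 3.041 against 6.525 and 8.001 CPM), while plasmacytoid dendritic cell sums overlapped. The part of these cell types in the CLEC results was not tested, except where values are given below.

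Of the 30 CLEC genes, 18 had enough counts to be tested and 12 did not, and 1 of the latter, Clec18a, was at 0 in all 4 libraries. By edgeR's quasi-likelihood test with Benjamini-Hochberg adjustment over all 14256 genes tested, 12 of the 18 were called at an adjusted p under 0.05, where 53.8% of all tested genes were called. Of these, 9 were lower in Tumor (24.8% of all tested genes were) and 3 were higher (29.0% of all tested genes were). This balance depended on the scaling of the libraries, since scaling on the AM identity genes gave 6 lower and 7 higher, where 75.6% of all tested genes were called, 4.59% lower and 71.0% higher. The 18 genes had a median log2 fold change of -0.40, against 0.02 over all tested genes. In 14 of the 18 the Control and Tumor values did not overlap, as in 75.1% of all tested genes. Clec4n and Clec4e, which had the highest levels per length among the members in Control, were among the genes that fell, and Clec12a, Clec2i and Clec4a1 rose. Fewer cells of a type and less RNA per cell cannot be told apart in such bulk libraries.

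**Figure D1:**
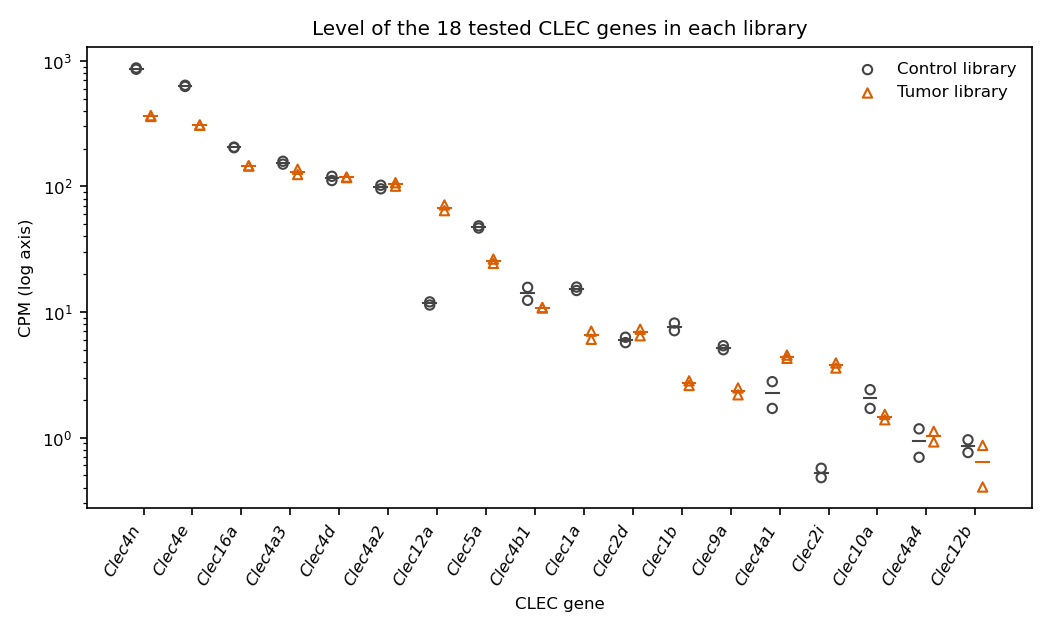
Level of each of the 18 tested CLEC genes in CPM (log axis), with 1 point per library (circles, Control; triangles, Tumor) and a short line at the mean of the 2 libraries of a group. Genes are ordered by level, and Clec12a and Clec2i are seen to lie far higher in the Tumor libraries, while Clec4n, Clec4e and Clec1b lie lower.

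Summed over the family, CLEC transcripts made up 0.213% of all counts in each Control library, and 0.135% and 0.132% in the Tumor libraries. The sum was 2187 and 2185 CPM in Control and 1317 and 1290 CPM in Tumor. Clec4n and Clec4e together supplied 68.3% and 68.7% of the CLEC counts in Control and 51.2% and 51.7% in Tumor. Clec12a moved the other way, from 0.520% and 0.551% of the CLEC counts in Control to 5.40% and 4.97% in Tumor. Thus the make-up of the CLEC pool differed between the groups as well as its size.

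**Figure D2:**
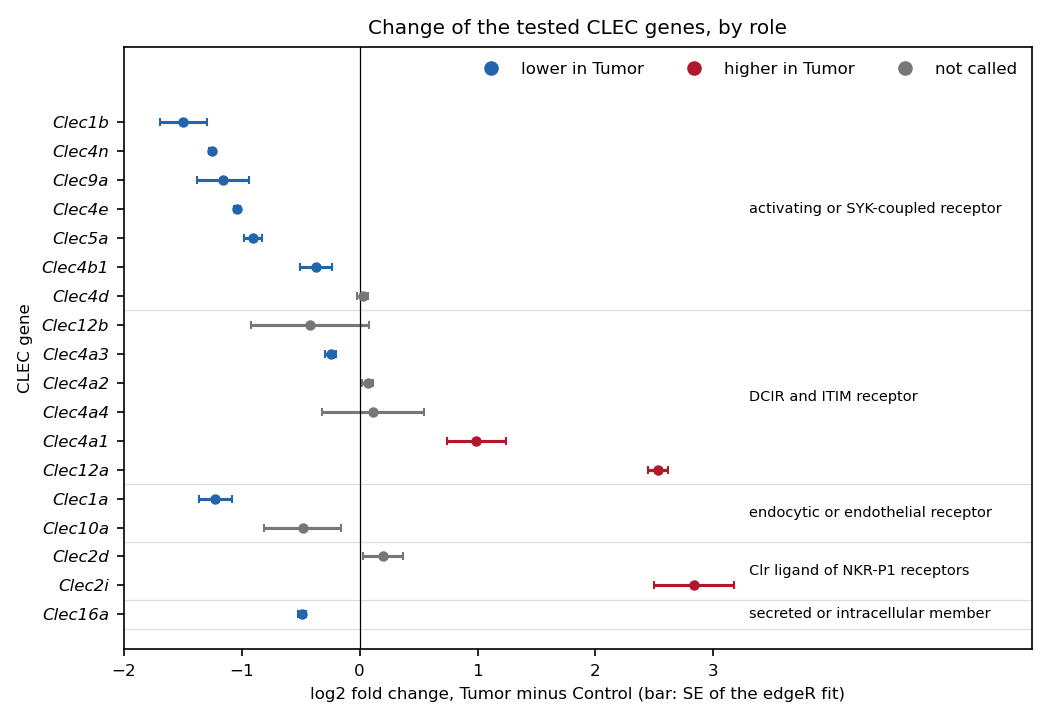
Log2 fold change of each tested CLEC gene (Tumor minus Control, points) with the standard error of the edgeR fit (bars), grouped by the role of the encoded protein; blue is lower, red is higher and grey is not called at an adjusted p under 0.05. All coloured points among the activating receptors lie left of 0, and the 3 red points are Clec4a1, Clec12a and Clec2i.

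Among the 8 activating or SYK-coupled members, 7 were tested, of which 6 were lower in Tumor, none higher and 1 not called, where 24.8% of all tested genes were lower, and 1 of the 6, Clec4b1, turned positive with scaling on the AM identity genes. Clec4n (chr6:123229843-123247021, plus strand; coordinates here and below are of GRCm38) encodes Dectin-2, a receptor for fungal mannans. Counts of Clec4n were 16037 and 13832 in Control against 6333 and 7066 in Tumor. Both Tumor values lay far below both Control values, at 362.9 ± 3.96 CPM (SD, n = 2) against 866.0 ± 14.8 CPM (SD, n = 2). The log2 fold change was -1.25 ± 0.0242 (SE), a 2.39-fold lower level, with an edgeR adjusted p of 1.08e-25. Clec4e (chr6:123281789-123289870, minus strand), which encodes Mincle, a receptor for mycobacterial cord factor and for ligands from dying cells, had 11966 and 9854 counts in Control and 5334 and 6012 in Tumor. Again the groups did not overlap, with 631.4 ± 9.90 CPM in Control and 307.2 ± 1.15 CPM in Tumor (SD, n = 2 each). The log2 fold change was -1.04 ± 0.0257 (SE; edgeR adjusted p = 3.98e-23).

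Clec4d (chr6:123262111-123275265, plus strand) encodes MCL, which forms a complex with Mincle, and lies between Clec4n and Clec4e on the chromosome. Its counts were 2255 and 1756 in Control and 2032 and 2328 in Tumor. The groups overlapped, at 115.8 ± 6.39 CPM and 118.0 ± 0.922 CPM (SD, n = 2 each), and the log2 fold change was 0.03 ± 0.0442 (SE; edgeR adjusted p = 0.660). No difference in Clec4d was thus called beside neighbours that fell, although scaling on the AM identity genes put it higher in Tumor, at a log2 fold change of 0.54.

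Ratios of counts within a library do not depend on how libraries are scaled. They can still depend on the mix of cells in the library, and its part was not tested. The ratio of Clec4n to Clec4d was 7.11 and 7.88 in Control and 3.12 and 3.04 in Tumor, a 2.43-fold difference. The ratio of Clec4e to Clec4d was 5.31 and 5.61 in Control and 2.63 and 2.58 in Tumor. Neither ratio overlapped between the groups, so Mincle and Dectin-2 transcripts were lower relative to MCL transcripts in each Tumor library. Clec4n and Clec4e also differed from each other, though less, with a ratio of 1.34 and 1.40 in Control and 1.19 and 1.18 in Tumor. With 2 libraries against 2, the smallest two-sided p an exact permutation test can give is 0.333, and the ratios are given as values without a test.

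**Figure D3:**
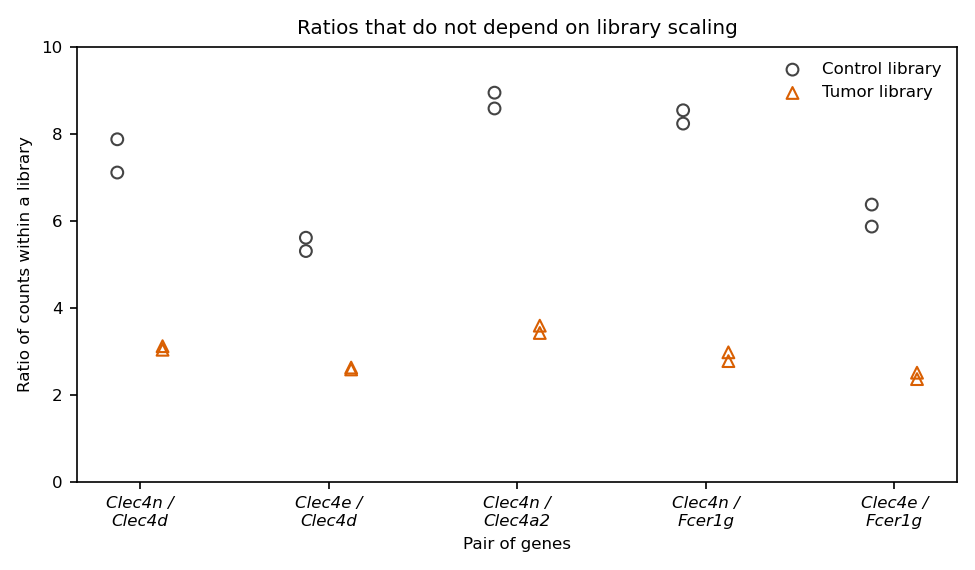
Ratio of the counts of 2 genes within each library (vertical axis, no unit), with 1 point per library, for Clec4n and Clec4e relative to Clec4d, Clec4a2 and Fcer1g. In all 5 pairs the Control circles lie between 5.31 and 8.95, and the Tumor triangles lie between 2.36 and 3.59.

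Clec5a (chr6:40574894-40585821, minus strand), outside the clusters, encodes MDL-1, which signals through DAP12. It had 909 and 735 counts in Control and 422 and 517 in Tumor, with no overlap. Its level fell from 47.5 ± 1.36 CPM to 25.4 ± 1.40 CPM (SD, n = 2 each; log2 fold change -0.91 ± 0.0778 SE, edgeR adjusted p = 7.16e-11). Clec4b1, of the DCAR group of FcR gamma-coupled receptors, had 232 and 248 counts in Control and 188 and 211 in Tumor. Its call was weak, with a log2 fold change of -0.37 ± 0.134 (SE; edgeR adjusted p = 0.0210) that became -0.20 (adjusted p = 0.370) without Control replicate 2 and 0.15 (adjusted p = 0.316) with scaling on the AM identity genes. In addition, 8.68% of the 50-base stretches of its transcripts were shared with Clec4a2, so reads may have been split between them. Its neighbour Clec4b2 had no counts in Control and 4 in each Tumor library, too few to be tested.

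Clec1b and Clec9a encode the SYK-coupled receptors CLEC-2, the podoplanin receptor of platelets, and DNGR-1, a receptor for exposed actin on cross-presenting dendritic cells. Clec1b had 153 and 112 counts in Control and 49 and 51 in Tumor, the lowest log2 fold change among the tested members at -1.50 ± 0.199 (SE; edgeR adjusted p = 2.94e-07). Clec9a had 101 and 79 counts in Control and 43 in each Tumor library, with a log2 fold change of -1.16 ± 0.222 (SE; edgeR adjusted p = 6.79e-05). Both were low genes whose groups did not overlap. They overlap each other by 474 bases on the same strand, so their reads cannot be fully told apart.

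Markers of platelets and of dendritic cells, in which CLEC-2 and DNGR-1 are best known, did not move as 1 group. Of 7 platelet markers, Ppbp, Gp1bb and Gp6 had no counts in Control and at most 2 in Tumor, while Pf4 was lower (55 and 48 against 14 and 9 counts) and Itga2b, which is also expressed outside platelets, was higher (53 and 43 against 403 and 532 counts). Gp9 had 6 and 5 counts in Control and 3 and 2 in Tumor, and Treml1 had 3 or 4 in each library. The summed platelet markers were 6.24 and 6.34 CPM in Control and 24.5 and 27.9 CPM in Tumor, of which Itga2b alone supplied 2.78 ± 0.0728 CPM and 25.2 ± 2.72 CPM (SD, n = 2 each), so the rise of the sum was that of Itga2b. Of 6 conventional dendritic cell markers, Flt3, Ccr7 and Dpp4 were higher, Batf3 was lower, and Xcr1 (12 and 16 against 24 and 18 counts) and Zbtb46 were not called, with a sum of 9.25 and 9.44 CPM in Control and 31.1 and 31.7 CPM in Tumor. The part of platelets or dendritic cells in the counts of Clec1b and Clec9a was not tested beyond these values.

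Of the 6 members grouped as DCIR, relatives of DCIR or inhibitory receptors, all were tested, and 2 were higher, 1 lower and 3 not called, near the shares of all tested genes (29.0% higher and 24.8% lower). Clec12a (chr6:129342691-129365303, plus strand) encodes MICL, an inhibitory receptor for uric acid crystals found on granulocytes, monocytes and dendritic cells. It had 213 and 190 counts in Control and 1231 and 1258 in Tumor. Both Tumor libraries lay well above both Control libraries, with means of 67.6 ± 4.93 CPM and 11.7 ± 0.478 CPM (SD, n = 2 each). The gene rose 5.78-fold, a log2 fold change of 2.53 ± 0.0868 (SE; edgeR adjusted p = 8.16e-20). Relative to Clec4n in the same library it went from 0.0133 and 0.0137 to 0.194 and 0.178, a 13.8-fold change. Neutrophil and eosinophil markers, cells that carry this receptor, moved in the same direction, as given above. Of 8 monocyte markers (summed 74.3 and 74.7 CPM in Control and 88.2 and 94.3 CPM in Tumor), 5 were higher, Vcan was not called, and Cx3cr1 (log2 fold change -1.71) and Treml4 (-1.09) were lower. The methods for the RNA-seq do not say whether a CD11b- gate was applied. The part of neutrophils, eosinophils and monocytes in the rise of Clec12a was not tested.

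Clec4a1, a DCIR relative known as DCIR4, had 32 and 44 counts in Control and 74 and 89 in Tumor, with no overlap. Its level rose from 2.25 ± 0.764 CPM to 4.40 ± 0.186 CPM (SD, n = 2 each; log2 fold change 0.99 ± 0.249 SE, edgeR adjusted p = 0.00133), but without Control replicate 1 the adjusted p was 0.0770 at a log2 fold change of 0.66, against 1.36 without Control replicate 2. Clec4a3 was abundant, with 2969 and 2372 counts in Control and 2369 and 2438 in Tumor. The log2 fold change of Clec4a3 was -0.24 ± 0.0438 (SE; edgeR adjusted p = 2.65e-05) with the standard scaling and 0.27 (adjusted p = 1.29e-05) with scaling on the AM identity genes, so its direction depended on the scaling. Clec4a2, which encodes DCIR itself, had 1792 and 1611 counts in Control and 1851 and 1969 in Tumor and overlapping levels of 98.8 ± 4.58 CPM and 103.6 ± 4.62 CPM (SD, n = 2 each; log2 fold change 0.07, edgeR adjusted p = 0.236), although total counts as library sizes (0.14) and the AM identity scaling (0.59) each put it higher. Clec4a4, which encodes DCIR2 and shares 15.7% of its 50-base stretches with Clec4a2, had 22 and 11 counts in Control and 16 and 22 in Tumor and was not called (edgeR adjusted p = 0.852). Clec12b, an inhibitory receptor gene 10.2 kb from Clec12a, had 18 and 12 counts in Control and 7 and 17 in Tumor and was not called either (edgeR adjusted p = 0.504). The rise of Clec12a thus stood beside a neighbour for which no difference was called.

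Clr ligands were sparse. Clec2i (chr6:128887588-128898167, plus strand) encodes Clr-g, a ligand of NKR-P1F, and its counts were 9 in each Control library against 62 and 77 in Tumor. The Tumor level of 3.75 ± 0.243 CPM exceeded the Control level of 0.525 ± 0.0637 CPM (SD, n = 2 each) by 7.12-fold, the largest fold among the tested members (log2 fold change 2.83 ± 0.339 SE, edgeR adjusted p = 4.49e-08). Clec2i overlaps BC035044 by 3539 bases on the opposite strand, and because the strand setting of the counting is not given, reads of the pair may not be separable. BC035044 had 0 and 2 counts in Control and 11 and 9 in Tumor.

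Clec2d encodes Clr-b, the ligand of the inhibitory receptor NKR-P1B that is displayed by most blood cells. It had 118 and 90 counts in Control and 112 and 143 in Tumor. Its groups did not overlap but lay close, at 6.0 ± 0.419 CPM and 6.88 ± 0.580 CPM (SD, n = 2 each), and the gene was not called (log2 fold change 0.20 ± 0.170 SE, edgeR adjusted p = 0.350) except with scaling on the AM identity genes, where it was 0.71. The other Clr genes were at or near the floor. Clec2l had 3 to 5 counts per library, Clec2g had 0 in Control and 1 and 3 in Tumor, and Clec2e and Clec2h each had 1 count in 1 Tumor library. Of the receptor genes, Klrb1f (NKR-P1F) had 2 and 3 counts in Control and 95 and 55 in Tumor and was higher (edgeR adjusted p = 3.30e-09), whereas Klrb1b (NKR-P1B) had 403 and 285 against 286 and 268 counts and was lower (log2 fold change -0.40 ± 0.117 SE, edgeR adjusted p = 0.00503), or 0.12 with scaling on the AM identity genes. All 3 tested natural killer cell markers were higher, with a sum of 1.44 and 1.65 CPM in Control and 5.72 and 6.07 CPM in Tumor, and their part in these counts was not tested.

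Of 5 endocytic or endothelial receptors, Clec1a and Clec10a were tested. Clec1a, which encodes MelLec, a receptor for fungal melanin, had 296 and 234 counts in Control and 105 and 138 in Tumor. The groups did not overlap, and the level fell from 15.3 ± 0.682 CPM to 6.55 ± 0.686 CPM (SD, n = 2 each; log2 fold change -1.22 ± 0.140 SE, edgeR adjusted p = 2.04e-08). Clec10a (chr11:70156197-70170834, plus strand), which encodes the galactose-type lectin MGL1, had 32 and 38 counts in Control and 24 and 30 in Tumor and was not called (log2 fold change -0.48 ± 0.327 SE, edgeR adjusted p = 0.225). Its close paralog Mgl2 went from 34 and 35 counts to 360 and 431, a log2 fold change of 3.41 ± 0.163 (SE; edgeR adjusted p = 1.71e-16), and 8.49% of the 50-base stretches of Clec10a were shared with Mgl2. Mgl2 thus rose beside a paralog for which no difference was called.

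The remaining endocytic or endothelial receptors were not tested. Clec14a, an endothelial receptor, had 8 to 11 counts per library. Clec4f, the Kupffer cell receptor, was at 0 in Control against 3 and 10 counts in Tumor, and Clec4g, expressed by liver sinusoidal endothelium, had 1 and 0 against 6 and 3. Beside these few counts, 1 of 3 tested Kupffer cell and liver sinusoid markers was higher (Oit3, 0 and 2 against 71 and 66 counts), Cd5l was lower and Timd4 was not called.

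Clec16a (chr16:10545339-10744878, plus strand) encodes an intracellular protein of endosomal and mitochondrial turnover and, despite its name, is not a surface lectin receptor. It had 3809 and 3242 counts in Control and 2519 and 2855 in Tumor. The groups did not overlap, at 204.3 ± 1.56 CPM and 145.5 ± 0.0275 CPM (SD, n = 2 each; log2 fold change -0.49 ± 0.0352 SE, edgeR adjusted p = 1.62e-12), but with scaling on the AM identity genes the difference was 0.03 (adjusted p = 0.491). The secreted members were not tested. Clec11a, a growth factor for blood and bone progenitors, had 4 and 0 counts in Control and 3 and 10 in Tumor, Clec3b had 2 and 0 against 2 and 4, and Clec3a had 3 in each Control library against 0 and 1.

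Clec7a, the gene of the beta-glucan receptor Dectin-1, is listed in the table as a polymorphic pseudogene and so is no member by the rule. It had 31470 and 26567 counts in Control and 19862 and 21979 in Tumor. Per length and library size, as CPM per kilobase (RPKM), it was at 637.3 ± 1.19 in Control and 429.7 ± 7.19 in Tumor (SD, n = 2 each), above every member, and it fell by 0.57 on the log2 scale (edgeR adjusted p = 4.58e-20), but with scaling on the AM identity genes the difference was -0.049 (adjusted p = 0.0677). Clec2f, also listed as a pseudogene, had 0 counts in Control and 5 and 3 in Tumor, and Clec2j had none. With these added, 13 of 19 tested Clec genes were called, where 53.8% of all tested genes were.

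Levels of different genes can be compared only per length, so they are given here as RPKM. In Control, Clec4n was highest at 609.8 ± 10.4, followed by Clec4e at 127.2 ± 2.00, Clec4a3 at 116.3 ± 4.32 and Clec4d at 72.4 ± 4.00 (SD, n = 2 each). In Tumor the order was Clec4n at 255.6 ± 2.79, Clec4a3 at 98.4 ± 6.69, Clec4d at 73.8 ± 0.576 and Clec4e at 61.9 ± 0.231 (SD, n = 2 each). Mincle thus went from place 2 to place 4 among the members. Clec4a2, at 33.8 and 35.4 RPKM, and Clec16a, at 24.4 and 17.4 RPKM, followed in Control and Tumor alike. Clec12a moved from place 11 (2.12 RPKM) to place 8 (12.2 RPKM). Among the low genes, Clec9a, Clec1b, Clec4a1 and Clec4a4, at 1.58 to 1.21 RPKM in Control, did not differ from their neighbours in the order beyond the spread of the libraries, and nor did Clec10a from Clec12b. In Tumor the same was true along the run Clec4a4, Clec1a and Clec2i, and along Clec1b, Clec10a and Clec12b.

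Along chromosome 6, called and uncalled members were interspersed. A first cluster of 9 members spanned 368 kb (chr6:122921848-123289870) in the order Clec4a1, Clec4a3, Clec4a4, Clec4b1, Clec4a2, Clec4b2, Clec4n, Clec4d and Clec4e. Of its 8 tested members, 1 was higher, 4 lower and 3 not called, where 53.8% of all tested genes were called. Clec4d lies 15.1 kb from Clec4n and 6.52 kb from Clec4e, both of which fell. A second cluster of 10 members, from Clec2h to Clec1a, spanned 790 kb (chr6:128662385-129452000) and had 2 higher, 3 lower and 2 not called among 7 tested. There Clec1b, Clec9a, Clec1a and the non-member Clec7a lie next to each other and were all lower, Clec7a not with the AM identity scaling. Clec12a and Clec2i, which were higher, lie on the other side of Clec12b, with Clec2d, which was not called, and untested genes between them.

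**Figure D4:**
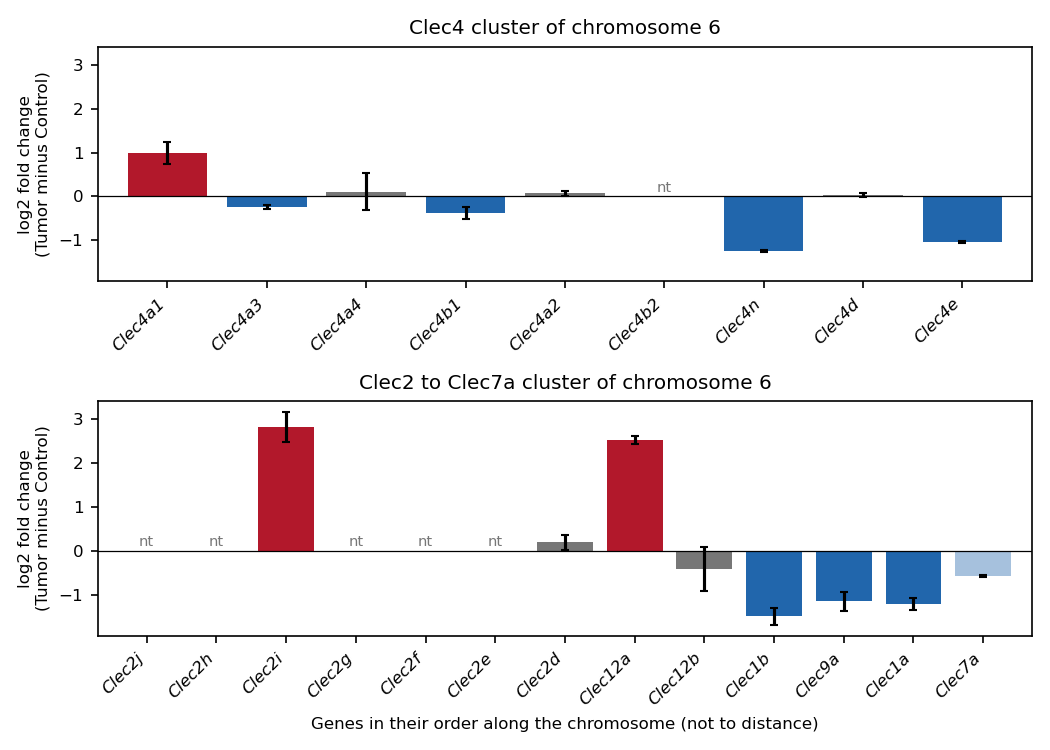
Log2 fold change (Tumor minus Control, bars, with the standard error of the edgeR fit) of the Clec genes of the 2 chromosome 6 clusters in chromosomal order, not to distance; blue is lower, red higher, grey not called, nt not tested, and the pale bar is Clec7a, which is no member. The bar of Clec4d is near 0 between the long blue bars of Clec4n and Clec4e.

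Promoter sequences are shown for the neighbours Clec4d and Clec4e, which differed in response, for Clec12a, which rose, and for Clec5a, which was lower and lies outside the clusters. Each is the 250 bases before the RefSeq transcription start on the strand of the gene (GRCm38.p6), at chr6:123261857-123262106 on the plus strand for Clec4d, chr6:123289872-123290121 on the minus strand for Clec4e, chr6:129349994-129350243 on the plus strand for Clec12a and chr6:40585806-40586055 on the minus strand for Clec5a. The RefSeq start of Clec12a lies 7553 bases from the gene start in the table. Capitals mark the PU.1 core GAGGAA, the site of the macrophage factor PU.1, and the core GCGTG of the aryl hydrocarbon receptor (AHR) response element, each read on both strands.
Clec4d: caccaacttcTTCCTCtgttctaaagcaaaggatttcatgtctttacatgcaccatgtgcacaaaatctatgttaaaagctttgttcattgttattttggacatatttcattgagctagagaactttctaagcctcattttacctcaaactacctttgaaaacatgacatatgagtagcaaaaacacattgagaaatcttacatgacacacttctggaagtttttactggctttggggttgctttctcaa
Clec4e: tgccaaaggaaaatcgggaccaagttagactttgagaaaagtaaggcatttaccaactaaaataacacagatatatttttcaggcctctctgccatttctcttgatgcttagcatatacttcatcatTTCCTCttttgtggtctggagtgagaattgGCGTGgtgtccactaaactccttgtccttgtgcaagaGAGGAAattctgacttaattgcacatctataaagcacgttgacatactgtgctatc
Clec12a: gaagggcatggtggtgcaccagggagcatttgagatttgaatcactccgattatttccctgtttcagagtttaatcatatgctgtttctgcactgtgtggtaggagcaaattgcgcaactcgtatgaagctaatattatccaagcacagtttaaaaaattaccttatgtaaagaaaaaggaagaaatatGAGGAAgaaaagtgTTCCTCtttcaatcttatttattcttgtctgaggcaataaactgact
Clec5a: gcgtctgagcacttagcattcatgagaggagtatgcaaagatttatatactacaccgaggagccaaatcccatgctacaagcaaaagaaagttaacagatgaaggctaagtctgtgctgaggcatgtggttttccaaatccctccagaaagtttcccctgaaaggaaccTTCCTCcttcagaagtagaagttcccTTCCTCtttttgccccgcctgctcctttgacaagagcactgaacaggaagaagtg
The window of Clec4e held 2 PU.1 cores and 1 AHR core, that of Clec4d held 1 PU.1 core, and those of Clec12a and Clec5a held 2 PU.1 cores each. Over the 24 members with a RefSeq promoter, 12 held the PU.1 core (23.3% of 32851 mouse promoters of this length did), 4 the AHR core (28.2% did) and 1 the STAT palindrome TTCNNNGAA (7.02% did), which can overlap a PU.1 core. Where a member had 2 RefSeq starts, the one nearest to the gene start of the table was counted. The second start of Clec4a3, left out by this choice, had the PU.1 core and no AHR core in its window, the reverse of the start that was counted. Of the tested members with a promoter, the PU.1 core was in 2 of 3 that were higher, 4 of 7 that were lower and 1 of 4 not called, and the AHR core was in 0, 3 and 1 of these. A match to letters is a description of the sequence and says nothing of binding in these cells.

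Genes that act with the receptors were taken from a list of the SYK and CARD9 route. Of 17 genes, all tested, 11 were higher in Tumor, 2 lower and 4 not called, where 29.0% of all tested genes were higher and 24.8% lower, with a median log2 fold change of 0.11 against 0.02 for all tested genes. The count depended on the method, since the DESeq2 Wald test called 8 of the 17, where it called 6368 of 18453 genes in all. Fcer1g, the FcR gamma chain that Dectin-2, Mincle and MCL pair with, had 1877 and 1679 counts in Control and 2128 and 2547 in Tumor and was higher (log2 fold change 0.29 ± 0.0449 SE, edgeR adjusted p = 2.73e-06). Tyrobp, the adaptor DAP12, had 6113 and 5437 against 5762 and 6752 counts and was not called (log2 fold change 0.01 ± 0.0304 SE, edgeR adjusted p = 0.715). Transcripts of Dectin-2, Mincle and MDL-1 were thus lower relative to those of their adaptors in each Tumor library. The ratio of Clec4n to Fcer1g was 8.54 and 8.24 in Control and 2.98 and 2.77 in Tumor, that of Clec4e to Fcer1g was 6.38 and 5.87 against 2.51 and 2.36, and that of Clec5a to Tyrobp was 0.149 and 0.135 against 0.0732 and 0.0766.

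Downstream, Syk itself was slightly higher (858 ± 2.16 against 900 ± 8.70 CPM, SD, n = 2 each; log2 fold change 0.07, edgeR adjusted p = 0.00595), as were Card9 (0.11, edgeR adjusted p = 0.0455) and Bcl10 (0.17, edgeR adjusted p = 0.00242). Malt1, the protease of the CARD9 complex, had 13885 and 11045 counts in Control and 3537 and 4146 in Tumor. It fell, with a log2 fold change of -1.79 ± 0.0297 (SE; edgeR adjusted p = 3.10e-27). With scaling on the AM identity genes Card9 was at 0.63, Bcl10 at 0.68 and Malt1 at -1.27, so Malt1 moved against its partners in the complex under both scalings. Inpp5d (SHIP-1), a phosphatase of the list, was higher at 0.37 (edgeR adjusted p = 4.05e-11). Of the phosphatases that inhibitory CLEC receptors recruit, Ptpn6 (SHP-1) was higher at 0.07 (edgeR adjusted p = 0.0273). Ptpn11 (SHP-2) was lower at -0.38 (edgeR adjusted p = 1.50e-07), or higher at 0.14 with scaling on the AM identity genes. With that scaling 16 of the 17 genes were higher, where 71.0% of all tested genes were, and Malt1 alone was lower. Pdpn, podoplanin, the ligand of CLEC-2, had 321 and 255 counts in Control and 80 and 100 in Tumor (log2 fold change -1.77 ± 0.144 SE, edgeR adjusted p = 2.31e-11).

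Other C-type lectin domain genes, outside the Clec symbols, were described from a list of 36, of which 21 were tested. In Tumor 13 were higher, 5 lower and 3 not called, with a median log2 fold change of 0.87, where 29.0% of all tested genes were higher and 24.8% lower. With scaling on the AM identity genes the split was 16 higher and 1 lower, where 71.0% of all tested genes were higher and 4.59% lower. Olr1, the oxidised lipoprotein receptor LOX-1, went from 13194 and 10672 counts to 3845 and 4295 (log2 fold change -1.65 ± 0.0277 SE, edgeR adjusted p = 4.34e-27). Ly75 (DEC-205), with 12085 and 10064 against 7991 and 9037 counts, was lower at -0.48 ± 0.0239 (SE; edgeR adjusted p = 5.10e-16), but with scaling on the AM identity genes it was 0.04 (adjusted p = 0.173). Cd209a, a mouse relative of DC-SIGN, rose from 11 and 17 to 236 and 264 counts (log2 fold change 4.05 ± 0.228 SE, edgeR adjusted p = 6.84e-15). Asgr1, Asgr2 and Mbl2, which are hepatocyte lectins, had at most 2 counts in any Control library and 16 to 104 in Tumor, beside the hepatocyte markers given above. The part of other cell types in these lectin counts was not tested.

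Directions depended on scaling for some members. Scaling on the AM identity genes, which treats these macrophage genes as level, shifted the log2 fold changes upward, so that their median over all tested genes was 0.54 and not 0.02. With it, Clec4n (-0.74), Clec4e (-0.52), Clec5a (-0.39), Clec1a (-0.70), Clec1b (-0.98) and Clec9a (-0.64) were still lower in Tumor, and Clec12a (3.05), Clec2i (3.35) and Clec4a1 (1.51) were still higher. Clec16a, Clec4a3 and Clec4b1 were not.

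**Figure D5:**
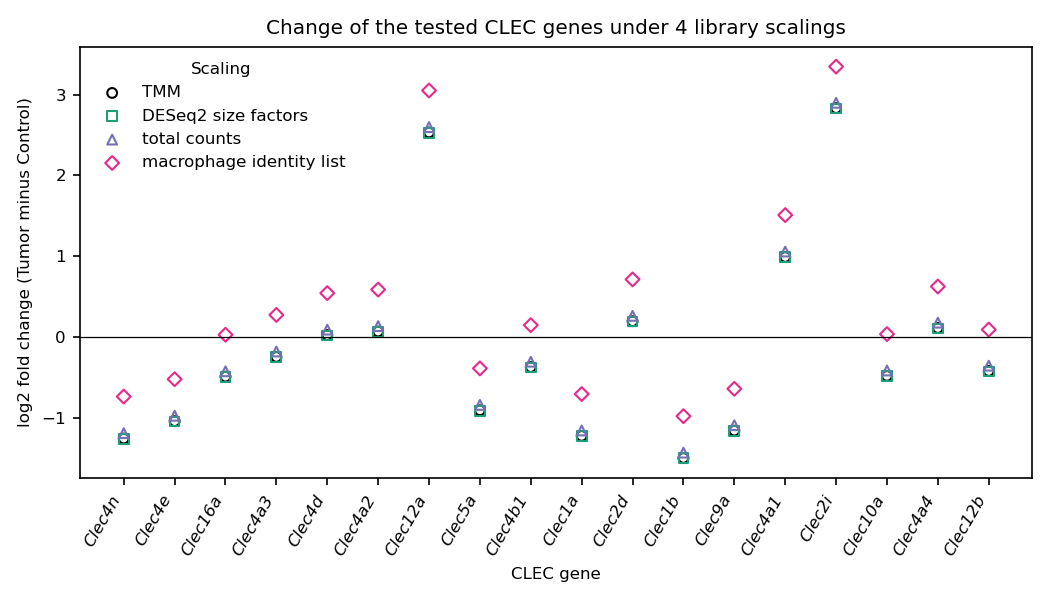
Log2 fold change (Tumor minus Control) of the 18 tested CLEC genes under 4 ways of scaling the libraries (TMM, DESeq2 size factors, total counts and the AM identity genes), 1 symbol each. The first 3 scalings nearly coincide, the AM identity scaling (diamonds) lies above them for every gene, and 6 genes stay below 0 under all 4.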

How the data were processed

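RNA-seq of AMs was performed by the authors on 2 Control and 2 Tumor libraries, grouped here from the titles in the labels. RNA was isolated with TRIzol, and a NEBNext Ultra RNA kit was used for library preparation. Per the study's methods and the submitters' processing notes, paired-end HiSeq reads were aligned with HISAT2 2.0.5 and assigned to genes with featureCounts, and the notes also name DESeq2. The deposited values used are the raw counts per gene, which the authors did not normalize. The genome build, annotation release, strand setting and handling of multi-mapped reads are not given in the sources used here. Of the 54532 gene identifiers, 54409 matched the GENCODE annotation of GRCm38, and 98.3% of these had identical coordinates, as had all 30 members. Unresolved multi-mapping or strand could split or share the counts of paralogs and overlapping genes.

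The analysis used edgeR 4.0.16 in R 4.3.3. After filterByExpr (minimum count 10), 14256 genes were tested and 40276 were not. TMM factors ranged from 0.977 to 1.02. The quasi-likelihood test had group as the single term, 2 residual degrees of freedom and Benjamini-Hochberg adjustment, with a threshold of 0.05. The SE was obtained from the fold change and its F statistic. CPM and RPKM were computed from the counts, TMM-scaled library sizes and gene lengths. On simulated counts with 200 changed genes, 94.8% of the 192 that were tested were called in the right direction and 2.15% of calls were false. The simulation changed far fewer genes than the 7671 called in the data, and used a common dispersion. Its share of false calls may thus not hold for these data. Replicates correlated at 0.994 (Control) and 0.992 (Tumor) in log2 CPM across genes, and their counts differed by more than counting noise (chi-square per gene 1.81 and 2.30), so each was kept as 1 sample. Same-numbered libraries of the groups did not deviate together (correlation -0.00278 across genes), and the number was not used as a block except as an alternative.

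All CLEC genes are named. From other lists, the genes named are adaptors, partners, close paralogs and called genes with large changes, while Ly75, Olr1, Cd209a, Syk, Card9, Bcl10, the phosphatases and single cell type markers were chosen for mention once their values were known. The members and lists were chosen with earlier results of these data known. Shared sequence was counted as identical 50-base stretches of GENCODE transcripts. Promoters were taken from RefSeq. Alternatives were other scalings, filters and thresholds, limma-voom (limma 3.58.1), the DESeq2 1.42.0 Wald test, protein-coding genes alone, a replicate block and leaving out each library. Adding the Clec genes listed as pseudogenes and removing 4 lists of other cell types were chosen after the data were seen.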

Additional observations from a re-analysis of the deposited data

How the results depend on the processing

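Calls were 11 to 13 of the CLEC genes under every alternative of scaling, filter and tool. The exception was a log2 fold change of at least 1, which left 7, of which 5 were lower, and 2268 genes in all. The main fit called 12 of 18 CLEC genes and 7671 of 14256 genes in all. The Wald test of DESeq2 called 11 of 25, and 6368 of 18453 in all. With no filter 13 of 29 were called, and 7917 of 25322 in all. Scaling on the AM identity genes gave 13 of 18, and 10775 of 14256 in all. The replicate block gave 12 CLEC genes and 7446 genes in all, and changed no CLEC count. Scaling on the AM identity genes called 7 CLEC genes higher and raised the share of higher calls among all genes from 53.9% to 93.9%; total counts gave 62.7%. Under that scaling Clec16a (0.029), Clec4a3 (0.27), Clec4b1 (0.15), Clec10a (0.037) and Clec12b (0.093) changed sign. Leaving out 1 library moved Clec4d from -0.033 to 0.085, Clec4a4 from -0.20 to 0.55, and Clec12b from -1.09 (without Tumor replicate 2) to -0.00081 (without Tumor replicate 1). Clec4b1 lost its call with total counts (adjusted p = 0.0577), with DESeq2 (0.0797) and without Control replicate 2. The Wald test of DESeq2 called 8 genes of the SYK and CARD9 list and no filter gave 9, rather than 13. Both settings called a smaller share of all genes, as given above. A minimum of 10 counts in every library left 12 of the other lectin genes tested and 10 called rather than 18, where 6517 of 12279 genes were called in all. The cause of these shifts was not tested. Removing the genes of the 4 cell type lists (neutrophil, eosinophil, basophil and mast cell, and hepatocyte) left 12 CLEC genes called. This step dropped marker genes alone and left every CLEC count as it was. It thus says nothing of reads that other cells may add to CLEC genes. Of the 18 tested genes, 8 kept direction and call at an adjusted p of 0.05 under every alternative that tested them, the fold threshold aside; Clec2i, 1 of these, was not tested with at least 10 counts in every library. Precision was lowest for genes with few counts, with an SE of 0.432 for Clec4a4 and 0.497 for Clec12b against 0.0242 for Clec4n.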
